A study of Sus scrofa with 20 samples.

Results

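Genes of 5 related families were examined in epicardial adipose tissue, the fat that lies on the heart, of Ossabaw miniature pigs: the matrix metalloproteases (MMP), the ADAM and ADAMTS metalloproteases, the ADAMTS-like proteins (ADAMTSL) and the tissue inhibitors of metalloproteases (TIMP). The families were chosen with earlier results of these data known, and their members were then taken by name alone, as a family prefix followed by a number. The rule took 60 of the 22861 rows of the first deposited table, which counts reads in exons of Sscrofa10.2 genes, and 31 names that stand only in the second table of 10157 rows. The 91 entries comprised 25 MMP, 33 ADAM, 22 ADAMTS, 7 ADAMTSL and 4 TIMP entries. Sequenced were 8 libraries of WD+S pigs, 6 of HHD+S pigs and 6 of HHD pigs. The WD+S pigs ate a Western diet (called atherogenic in the diet label), high in cholesterol, saturated fat and refined grain, and were given atorvastatin, which blocks cholesterol synthesis. The HHD+S pigs were given the same drug on a Heart Healthy diet of unsaturated fat, whole grain, fruit and vegetables, and the HHD pigs ate the Heart Healthy diet with no drug. A Western diet group without the drug was not analysed here, and age and sex are not in the labels of single libraries.

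These families set how the collagen and proteoglycan scaffold of fat is cut and rebuilt. MMPs are made as inactive precursors that are opened outside the cell or at its surface, and TIMPs block them by filling the active site. MMP14, which sits in the cell membrane, opens the precursor of the gelatinase MMP2 with TIMP2 as the bridge between them, so the same inhibitor takes part in activation. ADAM proteases stay in the membrane and cut other membrane proteins loose, ADAMTS proteases are secreted and trim procollagens and proteoglycans, and ADAMTSL proteins carry the ADAMTS ancillary domains without the protease.

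Depth in the first table ran from 2749337 to 6543337 counts per library. Adipocyte genes marked the tissue as fat: in the second table ADIPOQ (adiponectin) stood between 4619 and 11357 CPM and FABP4 between 2444 and 5190 CPM over the 20 libraries. CPM are a gene's counts per 1000000 counted reads of a library, with the library size scaled by edgeR's TMM method. Some libraries stood apart. HHD replicates 3 and 5 carried reads of both XIST and Y-linked genes, 1437 and 813 in replicate 3 and 3396 and 147 in replicate 5. Macrophage markers (7 of 10 listed were found) were high in HHD+S replicates 5 and 6, with sums of 1642 and 2677 CPM, while the sums of the other HHD+S libraries reached 1009 CPM. T and NK cell markers (7 of 8 found) summed to 189 and 254 CPM in the same HHD+S libraries and to at most 91.0 CPM elsewhere. In HHD replicate 2 the 4 neutrophil markers found, of 6 listed, summed to 228 CPM. In WD+S replicate 5 the 8 cardiomyocyte markers summed to 4817 CPM, while the next highest library had 1777 CPM. File names also carry a pool number, 1 or 2, whose meaning is not stated: 4 libraries of each group were in pool 1, and the rest (4 of WD+S, 2 of HHD+S, 2 of HHD) in pool 2. The pool 2 libraries of HHD+S were its replicates 5 and 6 and those of HHD its replicates 5 and 6, so every pool 2 value of these groups rests in part on libraries that stood apart, and leaving out HHD+S replicates 5 and 6 leaves HHD+S in pool 1 alone. A letter in the file names, also not explained, was B for HHD+S replicates 3 and 6 and HHD replicate 2 and A for the others.

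Names in the tables limit what can be read. The first table writes the gelatinase as MMP-2 (ENSSSCG00000002829), and also ADAM-9 and MMP-13, with a hyphen that the rule does not take, so MMP2, ADAM9 and MMP13 are given from the second table. The gene MMP2 had 113850 reads in the second table, and MMP-2 had 113513 in the first. Of the 60 first-table entries, 9 were copy rows of one name, such as MMP14_1 and MMP14_2, between which reads may be split. In a reference list of names only ADAM17_1, ADAMTS1_2, ADAMTSL3_1 and MMP14_1 of them carry a symbol. Whether the other copy rows belong to the same genes is not settled by it. The whole genes ADAM17, ADAMTS1, ADAMTSL3 and MMP14 are entries of the second table as well, and MMP23B there is the same gene as MMP23 in the first by a reference list of names. Of 30 genes in both tables with at least 200 reads in the first, 16 had over 1.5 times as many reads in the second, with a median ratio of 1.51 and a highest of 19.8 for ADAM22. ADAMTSL5 (7.72), ADAMTS6 (7.43) and ADAM12 (6.57) followed. ADAM10, ADAM15, ADAMTS2 and MMP14 had ratios between 0.997 and 1.08, so their read totals were close in both tables.

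Most ADAMTS and ADAMTSL genes were measured well enough to test, and most ADAM and MMP entries were not. An entry was tested where it passed edgeR's filter on low counts: 21 of 22 ADAMTS, 6 of 7 ADAMTSL, 3 of 4 TIMP, 14 of 33 ADAM and 10 of 25 MMP entries, 54 of 91 in all. Of all rows, 49.7% of the first table and 65.8% of the second passed the same filter. At 1 CPM or more in at least 6 libraries, 64 entries counted as expressed. No unique read was counted for 10 entries. In the first table these were ADAM18, ADAM29, ADAM30 and MMP20, which makes an enzyme of tooth enamel, and a total of 0 of 81643210 reads allows up to 0.0367 CPM over all libraries. In the second table they were ADAM1B, ADAM3A, MMP26 and 3 rows named for ADAM20, with a limit of 0.0372 CPM. The authors' RPKM were above 0 for ADAM1B in HHD replicate 3 (0.389) and for the row ADAM20L4* in HHD replicates 2 and 3 (0.111 and 0.0924), so these values do not come from the unique reads alone. These limits cover counting error only. The other 27 entries that were not tested had between 1 read (a row named for ADAM20) and 165 reads (MMP14_2) over all libraries. Among them were the membrane-anchored MMP16, MMP17 and MMP25, with 122, 83 and 91 reads and at most 4.03, 2.23 and 1.92 CPM in a library. The second table counted more for the same genes, 1136 reads for MMP16, 361 for MMP17 and 107 for MMP25. MMP7 (matrilysin) had 58 reads and 71 in the second table, and the inactive ADAM11 had 59 and 207. The gap was wider for ADAM32, with 22 and 842 reads, and for ADAMTS19, with 4 and 201. ADAM18, ADAM29 and ADAM30 are known in other mammals mainly from the testis.

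Levels of different genes were compared by the authors' RPKM, which divides by gene length and is in the second table only. TIMP2 and MMP2 led, far above the rest: TIMP2 had a median of 488 RPKM over the 20 libraries (range 362 to 666) and MMP2 a median of 485 RPKM (range 239 to 701). Each stood above 99.0% of all rows of that table. They could not be ordered against each other, since TIMP2 was the higher in 12 of 20 libraries. TIMP1, a secreted inhibitor, followed with a median of 108 RPKM (54.9 to 206), and MMP2 exceeded it in 20 of 20 libraries. Medians of MMP14, ADAMTS1 and ADAM15 were 91.3, 82.0 and 78.0 RPKM. Among these, neighbours overlapped: TIMP1 exceeded MMP14 in 12 libraries, MMP14 exceeded ADAMTS1 in 10 and ADAMTS1 exceeded ADAM15 in 13 of 20. ADAM15 exceeded the next gene, MMP28, in 20 of 20 libraries. MMP28 (epilysin, a secreted MMP) had a median of 46.1 RPKM and ADAMTSL4 one of 38.2 RPKM. The proteases of the shedding kind lay lower, with medians of 32.5 RPKM for ADAM10 and 25.6 RPKM for ADAM17. TIMP3, TIMP4, ADAMTS10, ADAMTS13 and ADAMTS15 have no row in the second table and so no place in this order. The plot of RPKM by gene and library shows the gap below TIMP2 and MMP2.

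**Figure D1:**
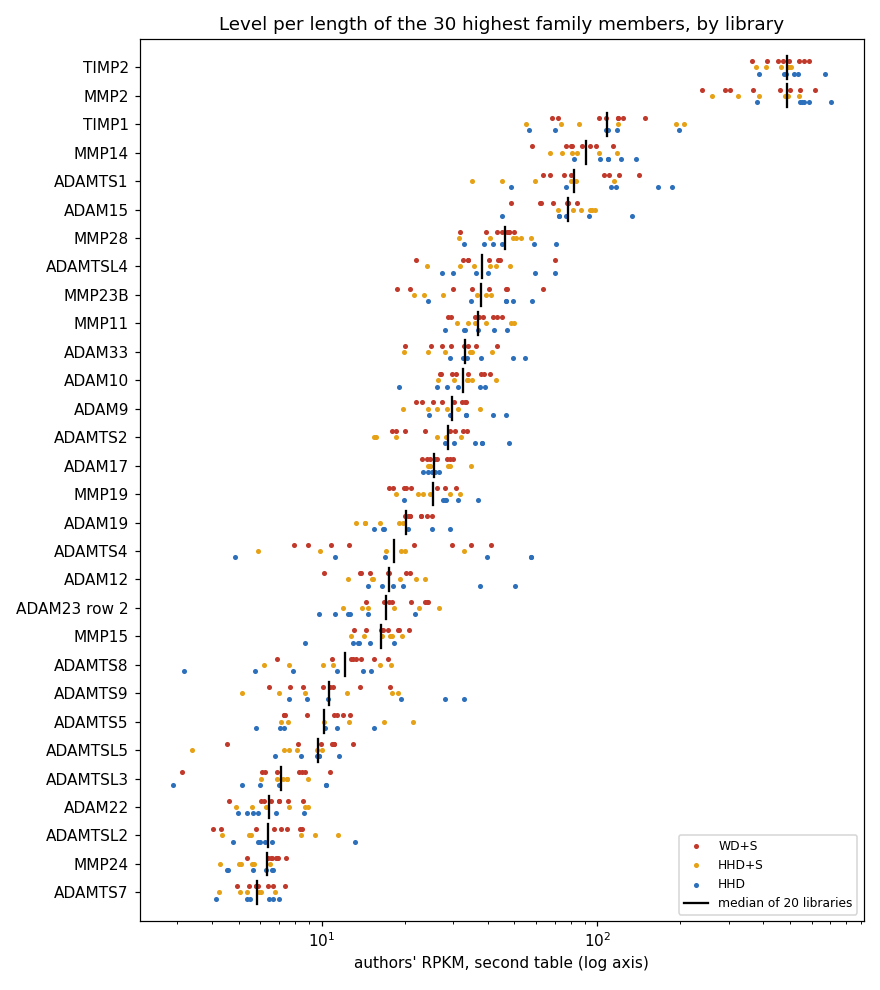
Authors' RPKM (log axis) of the 30 members with the highest medians, with a point for each of the 20 libraries coloured by group and a black bar at the median. TIMP2 and MMP2, with medians of 488 and 485 RPKM, lie apart from TIMP1 at 108 RPKM, and below them neighbouring genes overlap.

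No member passed edgeR's adjusted test in any comparison, so what follows describes levels and their spread. MMP2, the gelatinase that also cuts basement membrane collagen, had 767, 1261 and 1834 CPM (lowest, median, highest) in WD+S, 774, 1364 and 1713 in HHD+S, and 1213, 1733 and 2202 CPM in HHD. The HHD libraries were the higher on average, but the groups overlapped, and the lowest HHD library lay above 4 of 8 WD+S and 3 of 6 HHD+S libraries. The log2 fold change was -0.45 for WD+S against HHD (SE 0.21, edgeR adjusted p = 0.41). For HHD+S against HHD it was -0.43 (SE 0.22, edgeR adjusted p = 0.60), and for WD+S against HHD+S -0.03 (SE 0.21). In bulk tissue, fewer cells of a type and less RNA per cell cannot be told apart. Without HHD+S replicates 5 and 6 the value for HHD+S against HHD was -0.21, and without HHD replicates 3 and 5 the value for WD+S against HHD was -0.37.

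MMP14, the membrane-bound collagenase and activator of MMP2, was measured on row MMP14_1 (ENSSSCG00000002039) with 199, 273 and 372 CPM in WD+S, 233, 268 and 397 in HHD+S and 279.6, 363 and 477 CPM in HHD. As with MMP2, the HHD libraries lay toward the top, and 5 of 8 WD+S and 4 of 6 HHD+S libraries were below all of them. The log2 fold change was -0.41 for WD+S against HHD (SE 0.14, edgeR adjusted p = 0.26), and -0.35 for HHD+S against HHD (SE 0.15, edgeR adjusted p = 0.55). Within pools 1 and 2 the difference in mean log2 CPM of WD+S minus HHD was -0.40 and -0.30. The second row, MMP14_2, held few reads, with means of 2.68 ± 0.87 CPM in WD+S (SD, n = 8), 1.53 ± 1.07 in HHD+S and 1.34 ± 0.58 in HHD (n = 6 each), and was not tested. The order of its group means was thus the opposite of that of MMP14_1.

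TIMP2, the inhibitor that also bridges MMP14 and the MMP2 precursor, varied little. It had 1355, 1726 and 2096 CPM in WD+S, 1303, 1776 and 1869 in HHD+S and 1433, 1861 and 2442 CPM in HHD, and the ranges overlapped almost wholly. Its log2 fold changes were 0.07 for WD+S against HHD+S (SE 0.13), -0.17 for HHD+S against HHD (SE 0.14) and -0.10 for WD+S against HHD (SE 0.13). The RPKM ratio of MMP2 to TIMP2 had a median of 0.852 in WD+S (0.661 to 1.09), 0.886 in HHD+S (0.693 to 1.07) and 1.09 in HHD (0.784 to 1.46). This ratio of RNA levels was not tested and says nothing of the amounts of protein or of enzyme activity.

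TIMP3 binds to the matrix and inhibits ADAM17 as well as MMPs. It had 103, 147 and 223 CPM in WD+S, 57.9, 126 and 171 in HHD+S and 92.9, 177 and 289.7 CPM in HHD. Its largest difference was a log2 fold change of -0.53 for HHD+S against HHD (SE 0.26, edgeR adjusted p = 0.60), which was -0.24 without HHD replicates 3 and 5 and -0.33 without HHD replicate 3 alone. HHD replicate 3 was the highest library of all, and HHD+S replicate 3 the lowest. TIMP1 had 50.1, 80.5 and 111 CPM in WD+S, 42.2, 75.6 and 154 in HHD+S and 43.3, 82.1 and 146 CPM in HHD, with medians close together and the high values in HHD+S replicates 3 and 6 (154 and 149 CPM) and HHD replicate 2 (146 CPM). Its log2 fold changes were -0.23 for WD+S against HHD+S, 0.15 for HHD+S against HHD and -0.08 for WD+S against HHD. The libraries with these high values are those of letter B, and without them the fold changes of TIMP1 changed sign, with 0.33 for WD+S against HHD+S, -0.18 for HHD+S against HHD and 0.15 for WD+S against HHD on the log2 scale. They are the highest TIMP1 libraries of the series, so leaving them out had to lower HHD+S and HHD but not WD+S. The change of sign therefore cannot tell the letter from the choice of high libraries. Macrophage marker sums in the same libraries were 1009, 2677 and 2151 CPM, while HHD+S replicate 5, with 1642 CPM of these markers, had 88.4 CPM of TIMP1. The part of the macrophages in the TIMP1 values was not tested. TIMP4 had 158 reads in all libraries together, with at most 3.96 CPM in a library, and was not tested.

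**Figure D2:**
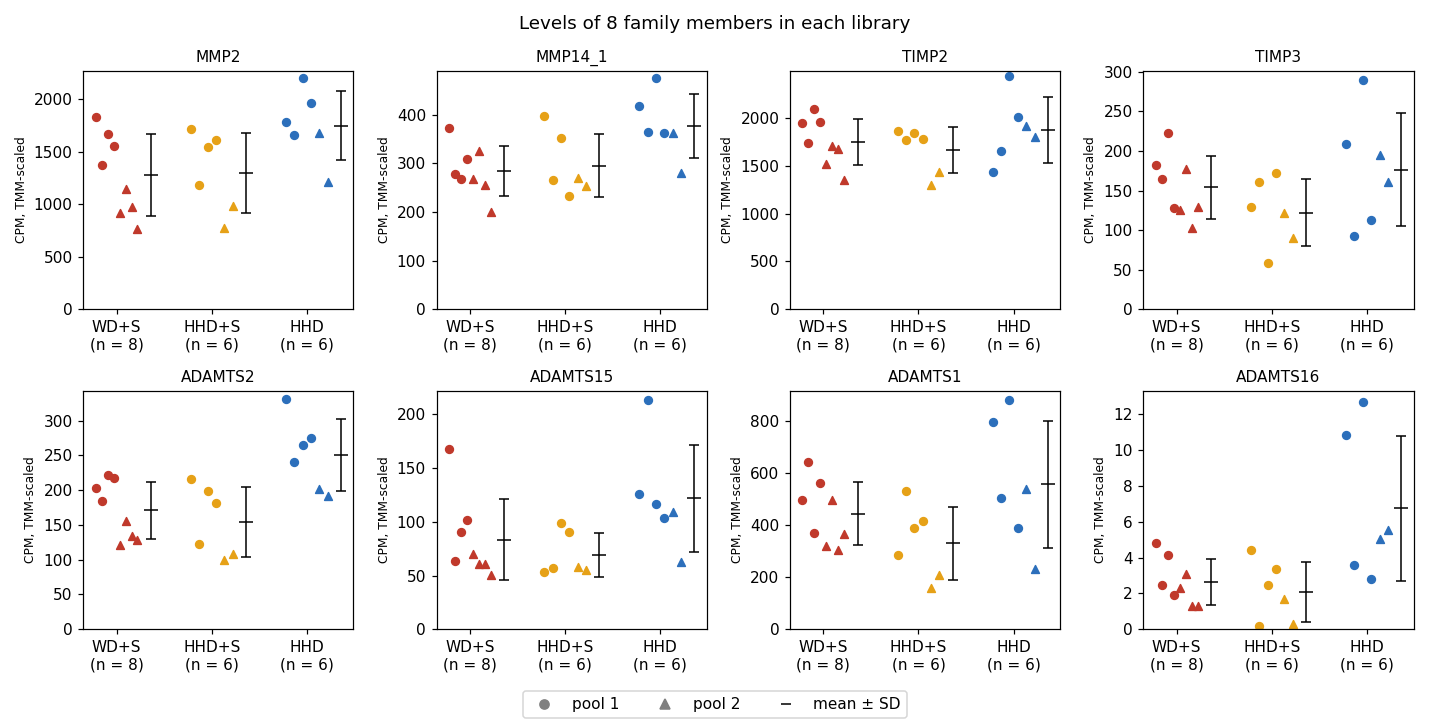
CPM on TMM-scaled library sizes for 8 members, a panel each, with a point for every WD+S (n = 8), HHD+S (n = 6) and HHD (n = 6) library, round for pool 1 and triangular for pool 2, and the mean ± SD at the right of each group. In WD+S the 4 pool 2 libraries lie below the 4 pool 1 libraries for MMP2, and HHD has the highest mean in all 8 panels, with overlap between groups in each.

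Pool and fibroblast markers moved with MMP2. In WD+S, MMP2 stood at 767 to 1143 CPM in pool 2 and at 1379 to 1834 CPM in pool 1, with no overlap between them. Y-linked reads were many in WD+S replicates 5, 7 and 8 of pool 2 and in replicate 3 of pool 1. The part of sex in this split was not tested. The difference in mean log2 CPM of WD+S minus HHD was -0.24 within pool 1 (4 against 4 libraries) and -0.60 within pool 2 (4 against 2). The 7 fibroblast markers, all found, summed to 8719, 16150 and 22010 CPM in WD+S (lowest, median, highest), 7644, 14803 and 19202 CPM in HHD+S and 18853, 21490 and 26352 CPM in HHD. The HHD libraries were high in this sum too, but a sum weighs its most abundant markers most. Of the markers, DCN averaged 3977 CPM in WD+S, 3889 in HHD+S and 4369 in HHD. LUM averaged 1112, 1082 and 1270 CPM in the same order. Against HHD the log2 fold changes of DCN were -0.14 (WD+S) and -0.17 (HHD+S), and those of LUM -0.19 and -0.23. In WD+S the fibroblast sum was 8719 to 14582 CPM in pool 2 and 17717 to 22010 CPM in pool 1. Other values split the same way in WD+S. Mesothelial markers (5 of 8 found) summed to 34.8 to 69.7 CPM in pool 2 and 109 to 181 CPM in pool 1. ADAMTS2 stood at 121 to 156 CPM in pool 2 and at 185 to 221 CPM in pool 1. The part of these marker sums in the MMP2 values was not tested.

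Over the 20 libraries the log2 CPM of MMP2 followed that of the summed fibroblast markers (Pearson r = 0.90, Spearman rho = 0.92, permutation p = 1e-05 for both). That p is the smallest that 100000 permutations can give, and both values were 2.5e-05 after adjustment over the 5 relations computed. Leaving out the libraries farthest from the median MMP2 level, HHD+S replicate 5 and WD+S replicate 8, gave r = 0.85, and within pools r was 0.80 (pool 1, 12 libraries) and 0.81 (pool 2, 8 libraries). MMP2 followed ADAMTS2, which trims fibrillar procollagens, with r = 0.90 and rho = 0.89 (permutation p = 1e-05, adjusted p = 2.5e-05 for both), with 0.81 and 0.86 within pools and 0.89 without those libraries. For MMP14 r was 0.77 and rho 0.77 (adjusted permutation p = 8.3e-05 and 0.00012), with 0.71 and 0.82 within pools, and r was 0.72 without those libraries. For TIMP2 r was 0.78 and rho 0.72 (adjusted permutation p = 8.7e-05 and 0.00062), with 0.45 in pool 1 and 0.92 in pool 2, and r was 0.65 without those libraries. For the summed adipocyte markers r was 0.04 and rho 0.14 (permutation p = 0.85 and 0.55 before and after adjustment), with 0.60 in pool 1 and 0.15 in pool 2, and r was 0.28 without those libraries. This sum held 4 of the 7 listed adipocyte markers, without ADIPOQ and FABP4, so it covers adipocyte content only in part. The points share depth and scaling between the measures, which come from the same libraries. Each permutation p is for the 20 libraries together, which differ in group and pool. None was computed within a group or a pool, so these p do not separate the relations from differences between groups or pools.

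**Figure D3:**
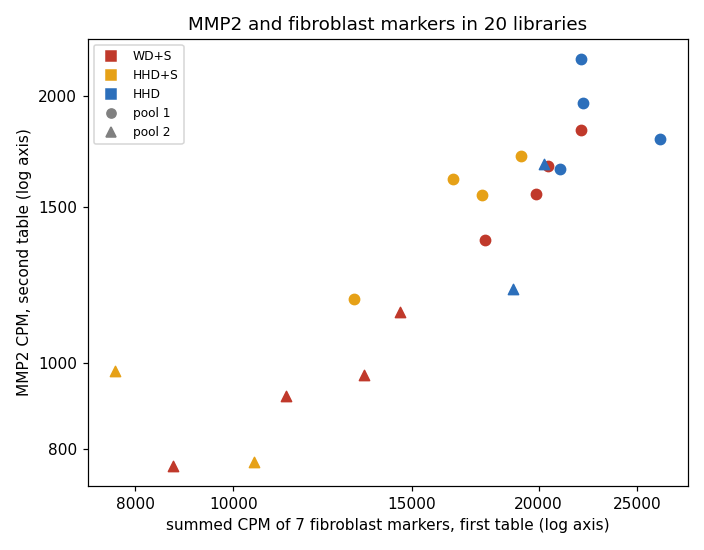
MMP2 CPM in the second table against the summed CPM of 7 fibroblast markers in the first (both log axes), with a point for each of the 20 libraries coloured by group, round for pool 1 and triangular for pool 2. MMP2 is higher where the markers are higher (r = 0.90), and the pool 2 libraries of WD+S and HHD+S lie at the lower left.

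Among the other MMPs tested, fold changes had both signs. MMP19, a secreted protease of basement membrane, had 28.9, 36.04 and 51.7 CPM in WD+S, 32.7, 41.0 and 55.0 in HHD+S and 36.2, 51.7 and 66.1 CPM in HHD. Of the WD+S libraries, 4 of 8 lay below every HHD library, and the log2 fold change for WD+S against HHD was -0.44 (SE 0.15, edgeR adjusted p = 0.24). MMP24, a membrane-type MMP known best from the nervous system, went the other way against HHD+S. It had 25.97, 34.0 and 38.7 CPM in WD+S and 21.2, 27.6 and 33.8 in HHD+S, with 4 of 8 WD+S libraries above all HHD+S libraries and a fold change of 0.30 on the log2 scale (SE 0.12, edgeR adjusted p = 0.48). HHD lay between them at 23.7, 29.7 and 34.6 CPM.

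The membrane-type MMP15 averaged 69.7 ± 9.67 CPM in WD+S, 69.7 ± 12.3 in HHD+S and 59.1 ± 14.2 in HHD. MMP11 (stromelysin-3), which furin activates inside the cell, averaged 80.7 ± 12.1 CPM in WD+S, 87.7 ± 19.1 in HHD+S and 81.9 ± 16.3 in HHD. MMP28 averaged 111 ± 14.2 CPM in WD+S, 121 ± 27.8 in HHD+S and 125 ± 40.6 in HHD (SD, n = 8, 6 and 6 for each gene, as for MMP23). MMP23, a membrane-anchored MMP of unusual domain order, averaged 46.3 ± 19.1 CPM in WD+S, 39.3 ± 12.2 in HHD+S and 54.5 ± 16.9 in HHD, and its log2 fold change for HHD+S against HHD was -0.48 (SE 0.28, edgeR adjusted p = 0.67). The log2 fold changes of MMP15, MMP11 and MMP28 ran from -0.16 to 0.24, within or near the spread between libraries.

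The collagenases and stromelysins that are typical of inflamed tissue had very few reads. MMP1 had 14 reads in all 20 libraries, MMP3 had 13, MMP13 had 17 and MMP8 had 8. Of these, 11 MMP1 reads and 12 MMP3 reads came from HHD replicate 2, at 2.83 and 3.02 CPM, while MMP1 was at or below 0.301 CPM and MMP3 at or below 0.246 CPM in every other library. MMP9, the gelatinase of neutrophils and macrophages, had 135 reads: 0, 1.13 and 3.92 CPM in WD+S, 0, 0.524 and 1.90 in HHD+S and 0.552, 2.30 and 9.78 CPM in HHD, where 9.78 CPM was again HHD replicate 2. None of them was tested. The plot of the proteases high in HHD replicate 2 shows that library apart from the rest.

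ADAM28 (12.6 CPM) and ADAM8 (7.20 CPM), both known from leukocytes, were also at their highest in HHD replicate 2. Neutrophil markers summed to 228 CPM there and to at most 22.2 CPM in the other HHD libraries. The next highest neutrophil sum was in WD+S replicate 1 (76.8 CPM), which also had the highest MMP9 of its group. Macrophage markers stood at 2151 CPM in HHD replicate 2, also the highest of its group. The part of these cells in the protease levels was not tested. MMP12, the elastase of macrophages, did not share the pattern: it had 128 reads, and its highest library was in WD+S with 4.24 CPM, while the highest HHD+S library had 2.89 CPM and the highest HHD library 3.02 CPM.

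**Figure D4:**
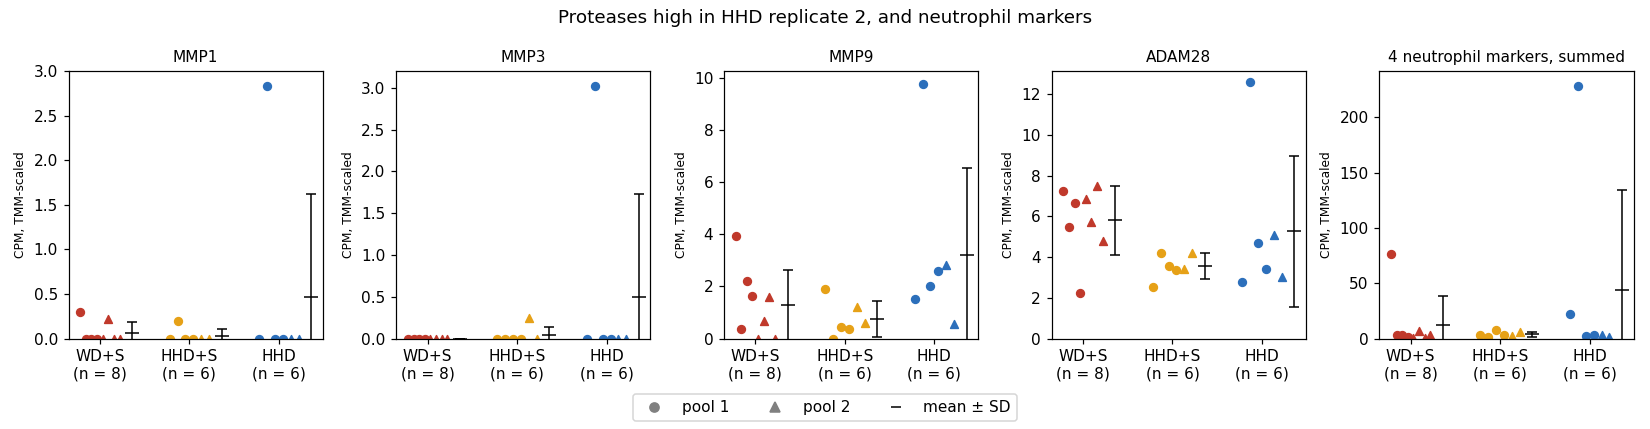
CPM on TMM-scaled library sizes for MMP1, MMP3, MMP9 and ADAM28 and, at the right, the summed CPM of 4 neutrophil markers, with a point for every WD+S (n = 8), HHD+S (n = 6) and HHD (n = 6) library, round for pool 1 and triangular for pool 2, and the mean ± SD at the right of each group. HHD replicate 2 is the highest point in each panel, at 2.83, 3.02, 9.78 and 12.6 CPM and 228 CPM.

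The main membrane sheddases were even across groups. ADAM10, which releases the outer parts of Notch receptors and cadherins, had 113, 139 and 174 CPM in WD+S, 118, 147 and 182 in HHD+S and 83.1, 129 and 169 CPM in HHD. Its log2 fold changes were -0.07, 0.15 and 0.07 (SE 0.14, 0.15 and 0.14) for WD+S against HHD+S, HHD+S against HHD and WD+S against HHD. ADAM17, the enzyme that releases tumour necrosis factor, was the steadiest, with row ADAM17_1 at 70.0, 78.3 and 91.3 CPM in WD+S, 76.9, 81.8 and 103 in HHD+S and 74.6, 77.0 and 82.0 CPM in HHD. Its log2 fold changes were -0.13, 0.15 and 0.03 in the same order (SE 0.09 for each), and the whole gene in the second table gave -0.07, 0.13 and 0.05.

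ADAM19 (meltrin beta, a sheddase of neuregulins) was the member with the smallest p for WD+S against HHD+S. It had 81.8, 97.1 and 109.8 CPM in WD+S and 54.2, 72.0 and 87.5 in HHD+S, with 7 of 8 WD+S libraries above every HHD+S library. The log2 fold change was 0.45 (SE 0.14, edgeR adjusted p = 0.36), with differences of 0.53 in pool 1 and 0.41 in pool 2. HHD, at 68.2, 82.8 and 132 CPM, overlapped both. ADAM28 had 2.26, 6.19 and 7.48 CPM in WD+S and 2.54, 3.49 and 4.22 in HHD+S, again with 7 of 8 WD+S libraries above all HHD+S libraries, and the remaining one, WD+S replicate 4, below them all. Its log2 fold change was 0.70 (SE 0.31, edgeR adjusted p = 0.53) on 410 reads in all.

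ADAM15, which carries an integrin-binding motif in humans, was lower in WD+S: 139, 203 and 235 CPM, against 209, 263 and 285 CPM in HHD+S. Here 4 of 8 WD+S libraries lay below every HHD+S library, and the log2 fold change was -0.36 (SE 0.17, edgeR adjusted p = 0.56). HHD spread over both groups at 132, 216 and 392.4 CPM. ADAM23, which has no protease activity and binds LGI proteins in brain, had 28.4, 34.2 and 44.2 CPM in WD+S against 16.5, 25.2 and 37.8 CPM in HHD. Its log2 fold change was 0.48 (SE 0.18, edgeR adjusted p = 0.27). In mean log2 CPM the groups differed by 0.72 in pool 1 and by 0.09 in pool 2. The summed neural and glial markers (5 of 6 found) had medians of 2630 CPM in WD+S and 1624 in HHD, with ranges of 1757 to 3351 and 1099.6 to 2676 CPM. Within pool 1 these medians were 2547 and 1533 CPM in the same order, and within pool 2 they were 2894 and 2292 CPM. Their part in the ADAM23 values was not tested.

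The remaining tested ADAM genes were higher in HHD or even. ADAM9 averaged 120 ± 17.3 CPM in WD+S, 119 ± 26.01 in HHD+S and 151 ± 36.8 in HHD, with log2 fold changes of -0.33 for WD+S against HHD (edgeR adjusted p = 0.41) and -0.34 for HHD+S against HHD (edgeR adjusted p = 0.56). ADAM33, studied in humans for its link to asthma, averaged 34.7 ± 9.03 CPM in WD+S, 33.9 ± 10.9 in HHD+S and 46.7 ± 14.3 in HHD. ADAM12, a protease of fat and muscle precursor cells in mice, averaged 5.35 ± 1.98 CPM in WD+S, 4.55 ± 1.34 in HHD+S and 6.24 ± 1.84 in HHD (SD, n = 8, 6 and 6 for each gene). ADAM8, ADAM3B, ADAM17_2 and ADAM22 had unadjusted p above 0.2 in every comparison.

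The procollagen-trimming ADAMTS enzymes were led by ADAMTS2 (ENSSSCG00000024043), which removes the amino-terminal propeptide of fibrillar collagens. It had 121, 170.5 and 221 CPM in WD+S, 99.2, 152 and 216 in HHD+S and 191, 252 and 331 CPM in HHD. The HHD libraries were high, with 5 of 8 WD+S and 4 of 6 HHD+S libraries below the lowest of them. The log2 fold change was -0.70 for HHD+S against HHD (SE 0.20, edgeR adjusted p = 0.40) and -0.55 for WD+S against HHD (SE 0.19, edgeR adjusted p = 0.25). Within pools 1 and 2 the differences were -0.65 and -0.92 for HHD+S minus HHD, and -0.42 and -0.55 for WD+S minus HHD, where the HHD+S side of pool 2 is replicates 5 and 6. With the pool as a term in the fit the edgeR adjusted p for HHD+S against HHD was 0.062 (log2 fold change -0.72), the lowest of any member under any setting tried. Without HHD+S replicates 5 and 6 that fold change was -0.48. For WD+S against HHD+S it was 0.14 (SE 0.19).

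ADAMTS3, with the same activity, had far fewer reads: 4.33, 5.63 and 8.26 CPM in WD+S, 2.31, 3.87 and 8.02 in HHD+S and 3.94, 7.02 and 17.9 CPM in HHD. The high end came from HHD replicates 1 and 2 (17.9 and 15.3 CPM), and the log2 fold change for HHD+S against HHD was -1.05 (SE 0.36, edgeR adjusted p = 0.39). ADAMTS14, the remaining enzyme of this kind, averaged 4.21 ± 1.21 CPM in WD+S (n = 8), 4.53 ± 1.89 in HHD+S and 4.33 ± 1.15 in HHD (SD, n = 6 each).

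Of the ADAMTS enzymes that cut the proteoglycans versican and aggrecan, ADAMTS1 was the most abundant by RPKM of those in the second table. As a whole gene in the second table it had 306, 432 and 642 CPM in WD+S, 158, 338 and 530.1 in HHD+S and 233, 522 and 879 CPM in HHD. The group ranges overlapped widely. Its log2 fold changes were 0.43 for WD+S against HHD+S (SE 0.28, edgeR adjusted p = 0.76), -0.75 for HHD+S against HHD (SE 0.30, edgeR adjusted p = 0.45) and -0.33 for WD+S against HHD (SE 0.28). Without HHD+S replicates 5 and 6 the first was 0.13 and the second -0.46, and without HHD+S replicate 5 alone the first was 0.28. For WD+S against HHD the value was -0.12 without HHD replicates 3 and 5, -0.15 without HHD replicate 3 and -0.21 without HHD replicate 1. The 3 rows of the first table named for it gave different sizes, and only ADAMTS1_2 carries its symbol in the reference list of names. For WD+S against HHD+S they were 0.18 (ADAMTS1_1), 1.02 (ADAMTS1_2, SE 0.33, edgeR adjusted p = 0.36) and 0.24 (ADAMTS1_3). Row ADAMTS1_2 had 37.2, 58.5 and 109 CPM in WD+S against 18.0, 26.8 and 45.8 in HHD+S, with 6 of 8 WD+S libraries above all of HHD+S. For HHD+S against HHD, where ADAMTS1_2 had 20.7, 54.3 and 114 CPM in HHD, its log2 fold change was -1.10 (SE 0.34, edgeR adjusted p = 0.40). The rows held 9916 reads together, and the gene of the second table held 36283.

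ADAMTS15 had 50.8, 66.9 and 167 CPM in WD+S, 53.0, 57.5 and 99.0 in HHD+S and 62.4, 113 and 213 CPM in HHD. WD+S replicate 1 and HHD replicate 2 had the highest values of their groups. The log2 fold change was -0.82 for HHD+S against HHD (SE 0.28, edgeR adjusted p = 0.44; -0.59 without HHD replicate 2) and -0.55 for WD+S against HHD (SE 0.26, edgeR adjusted p = 0.42). Leaving out WD+S replicate 1 made the value for WD+S against HHD -0.77 (edgeR adjusted p = 0.095). ADAMTS4, an inducible aggrecanase, varied widely within groups, with 25.7, 50.9 and 126 CPM in WD+S, 17.1, 57.4 and 91.0 in HHD+S and 14.1, 85.3 and 179 CPM in HHD. Its log2 fold changes had standard errors of 0.48 to 0.52, and the groups overlapped over nearly their whole ranges.

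ADAMTS5, the other main aggrecanase, had 8.47, 15.3 and 21.0 CPM in WD+S, 8.68, 18.6 and 30.8 in HHD+S and 9.26, 15.6 and 21.2 CPM in HHD, with log2 fold changes of -0.31, 0.28 and -0.03 for WD+S against HHD+S, HHD+S against HHD and WD+S against HHD. The first of these was -0.13 without HHD+S replicate 1 and -0.48 without HHD+S replicate 3. ADAMTS9 averaged 40.8 ± 15.1 CPM in WD+S, 40.4 ± 17.7 in HHD+S and 68.4 ± 42.7 in HHD, and HHD replicates 1 and 3 held its high values at 130.0 and 113 CPM. ADAMTS8 had its lowest mean in HHD, with 30.9 ± 7.53 CPM in WD+S, 28.4 ± 10.8 in HHD+S and 22.8 ± 11.7 in HHD. ADAMTS20 averaged 14.3 ± 3.82 CPM in WD+S, 12.98 ± 4.72 in HHD+S and 11.2 ± 5.84 in HHD (SD, n = 8, 6 and 6 for each gene). For HHD+S minus HHD, ADAMTS8 differed by 0.97 in pool 1 and -0.64 in pool 2, and ADAMTS20 by 0.90 and -1.10, so their direction was not shared between pools.

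ADAMTS16 (ENSSSCG00000017109), a protease reported to cut fibronectin, had the largest fold change of all members and few reads, 294 in total. It had 1.27, 2.37 and 4.82 CPM in WD+S, 0.192, 2.08 and 4.44 in HHD+S and 2.81, 5.29 and 12.7 CPM in HHD. HHD replicates 1 and 3 (10.8 and 12.7 CPM) were high, and 5 of 8 WD+S and 4 of 6 HHD+S libraries lay below all HHD libraries. The log2 fold change was -1.76 for HHD+S against HHD (SE 0.51, edgeR adjusted p = 0.40), and -1.37 for WD+S against HHD (SE 0.45, edgeR adjusted p = 0.23). Without HHD replicates 3 and 5 they were -1.5 and -1.11. Within pools 1 and 2 the differences were -1.43 and -2.12 for HHD+S minus HHD, and -0.88 and -1.29 for WD+S minus HHD.

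ADAMTS18, the closest relative of ADAMTS16, had 14.9, 27.4 and 32.0 CPM in WD+S, 14.4, 30.3 and 44.5 in HHD+S and 22.4, 42.9 and 85.5 CPM in HHD. The highest values were in HHD replicates 4 and 2 (85.5 and 62.1 CPM), not the libraries that were high for ADAMTS16. Its log2 fold change for WD+S against HHD was -0.84 (SE 0.29, edgeR adjusted p = 0.25), -0.87 within pool 1 and -0.33 within pool 2. ADAMTS6, which with ADAMTS10 acts on fibrillin microfibrils, had 1.74, 2.83 and 8.30 CPM in WD+S against 0.733, 1.95 and 3.72 in HHD+S, and differed by 0.85 on the log2 scale (SE 0.38, edgeR adjusted p = 0.54) on 235 reads, and by 0.52 without WD+S replicate 2. In the second table, which holds over 7 times as many ADAMTS6 reads, the fold change was 0.41.

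ADAMTS10 averaged 74.3 ± 12.3 CPM in WD+S, 86.0 ± 19.1 in HHD+S and 89.9 ± 29.2 in HHD. ADAMTS7, which cuts cartilage oligomeric matrix protein, averaged 13.8 ± 2.82 CPM in WD+S, 12.9 ± 2.64 in HHD+S and 14.1 ± 2.47 in HHD. ADAMTS12, with the same substrate, averaged 13.9 ± 3.81 CPM in WD+S, 11.6 ± 3.35 in HHD+S and 14.2 ± 4.44 in HHD. ADAMTS13, the protease of von Willebrand factor, was low, with means of 2.84 ± 1.34 CPM in WD+S, 2.60 ± 1.36 in HHD+S and 3.48 ± 2.00 in HHD (SD, n = 8, 6 and 6 for each gene). ADAMTS17 averaged 10.4 ± 3.69 CPM in WD+S, 9.67 ± 5.38 in HHD+S and 10.8 ± 1.26 in HHD (the same n). The ADAMTS-like genes had no entry among those with an unadjusted p below 0.05. ADAMTSL4, which binds fibrillin microfibrils, averaged 142 ± 49.7 CPM in WD+S, 135 ± 32.8 in HHD+S and 164 ± 64.1 in HHD, and the log2 fold changes of the 6 tested ADAMTSL entries ran from -0.41 to 0.37.

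The comparisons were also counted over the whole family. They share groups pairwise, so their counts are not independent. Diet under atorvastatin was addressed by WD+S against HHD+S: of the 38 tested first-table entries 0 passed the edgeR threshold of 0.05 adjusted over 11366 genes, where 0% of all genes passed. At an unadjusted p below 0.05 there were 5 entries against 8.69% of all genes, 4 of them higher (5.9% of all genes) and 1 lower (2.79%). The entries were ADAM19, ADAMTS1_2, ADAM28 and ADAMTS6 (higher) and ADAM15 (lower). The 5 are 13.2% of the entries. The number of entries below 0.05 was 2 without HHD+S replicates 5 and 6, and 2 or 3 without any one of WD+S replicates 2, 4, 5 and 7 and HHD+S replicates 1, 3, 4 and 5. In the second table MMP24 alone of 16 entries was below 0.05, and higher. That is 6.25% of them, against 8.18% of 6685 genes (5.73% higher and 2.45% lower). A negative fold change was found for 12 of the 38 entries (31.6%, against 51.8% of all genes), and for 7 of the 16 in the second table (43.8%, against 51.7%). The median log2 fold change was 0.11 over the 38 entries and 0.04 over the 16, and -0.01 over all genes of either table.

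Atorvastatin on the Heart Healthy diet was addressed by HHD+S against HHD. Again 0 of 38 entries passed after adjustment (0% of all genes). At an unadjusted p below 0.05 there were 9 entries, 23.7%, against 8.45% of all genes, and all 9 were lower in HHD+S (3.73% of all genes were). They were ADAMTS16, ADAMTS2, ADAMTS1_2, ADAMTS15, ADAM19, MMP14_1, ADAMTS1_3, ADAMTS9 and ADAM33. The number below 0.05 was 4 without HHD replicates 3 and 5 or without HHD replicate 3 alone, 5 without HHD+S replicate 5 and 5 without the letter B libraries. Of the 16 entries of the second table, 5 were below 0.05, all lower (31.2%, against 8.72% in either direction, 3.61% lower and 5.12% higher over all genes): ADAMTS3, ADAMTS1, MMP14, ADAMTS18 and ADAM9. This count was 1 without the letter B libraries, 1 without HHD+S replicate 5, 1 without HHD+S replicate 6, 2 without HHD replicate 1 and 3 without HHD replicate 3 or 4 or HHD+S replicate 3 or 4. Of these 16 entries 13 had a negative fold change (81.2%, against 53.3% of all genes of that table), with a median of -0.27 against -0.02. MMP14 and ADAMTS1 are in both tables and are not independent counts. A negative fold change was found for 26 of 38 entries (68.4%, against 51.9% of all genes), with a median of -0.24 against -0.01 over all genes.

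WD+S against HHD differs in diet and drug at once. After adjustment 0 of 38 entries passed (0% of all genes), and 7 had an unadjusted p below 0.05 (18.4%, against 11.4% of all genes). Lower in WD+S were 6 of them (15.8%, against 3.87%): ADAMTS16, MMP19, ADAMTS2, MMP14_1, ADAMTS9 and ADAMTS15. ADAM23 was the 1 higher entry (2.63%, against 7.56%). The count was 13 without HHD replicate 6. Of the 16 entries of the second table, 4 were below 0.05, all lower (25%, against 11.1% in either direction, 3.72% lower and 7.42% higher): ADAMTS18, MMP14, ADAM9 and MMP2. The count was 2 without any one of WD+S replicates 5, 7 and 8 and HHD replicates 1 and 4. A negative fold change was found for 25 of 38 entries (65.8%, against 53.8% of all genes), with a median of -0.06 against -0.02. For the second table it was 13 of 16 (81.2%, against 54% of all genes), with a median of -0.17 against -0.02.

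DESeq2, run as a second tool, called 13, 14 and 80 genes of the first table in the 3 comparisons in the order above (0.102%, 0.0981% and 0.782% of genes) and 0 members, and among those of the second table it called 6, 14 and 75 (0.0712%, 0.169% and 1.1%) with 0 members. Its lowest adjusted p for a member was 0.12, for ADAMTS18 in WD+S against HHD. In that comparison DESeq2 gave no adjusted p to 5 of the 38 first-table entries, ADAM8, ADAM22, ADAMTS6, ADAMTS13 and ADAMTS16, so its 0 covers the other 33. Of the members, 0 had groups that did not overlap in any comparison, while 0.0704%, 0.114% and 0.194% of all first-table genes did, and 0.12%, 0.224% and 0.404% of the second table's. The plot of fold changes gives every tested entry with its error.

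**Figure D5:**
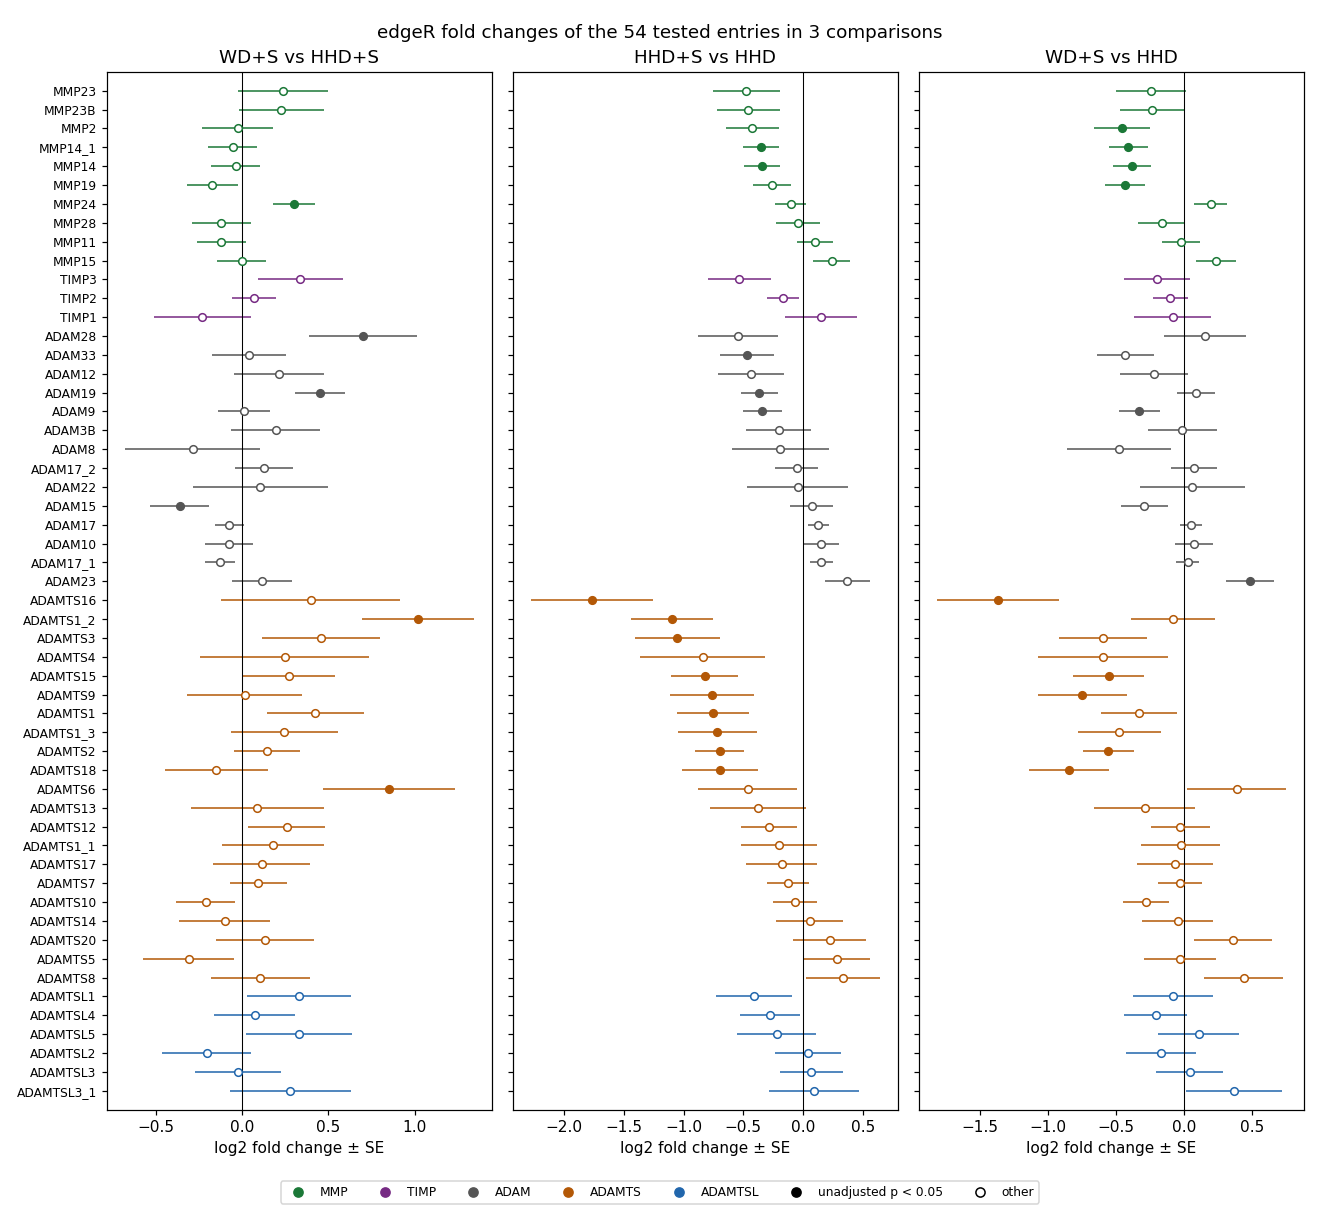
Log2 fold change ± SE (edgeR) of the 54 tested entries for WD+S vs HHD+S, HHD+S vs HHD and WD+S vs HHD, coloured by family, with filled points where the unadjusted p was below 0.05 and open points elsewhere. The filled points for HHD+S vs HHD all lie left of 0, with ADAMTS16 farthest at -1.76, and no entry passed the adjusted threshold in any panel.

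Genes that work with these families were read from lists. Of 28 listed regulators (the plasminogen system, convertases, other matrix proteases and cathepsins) 19 were tested and 0 passed after adjustment with edgeR. Counts at an unadjusted p below 0.05 were 0 for WD+S against HHD+S, 2 lower for HHD+S against HHD, and 1 higher and 1 lower for WD+S against HHD. Of the 19, 16 are from the first table. Of all its genes 8.69% were below 0.05 in either direction for WD+S against HHD+S. For HHD+S against HHD 3.73% were lower, and for WD+S against HHD 7.56% were higher and 3.87% lower. The others are from the second table, where the shares were 8.18%, 3.61%, 7.42% and 3.72% in the same order. BMP1, which removes the carboxy-terminal propeptide of fibrillar procollagens, averaged 150 ± 28.5 CPM in WD+S (n = 8), 152 ± 23.0 in HHD+S and 202 ± 39.1 in HHD (SD, n = 6 each). Its log2 fold change was -0.43 for WD+S against HHD (SE 0.14, edgeR adjusted p = 0.22) and -0.41 for HHD+S against HHD (SE 0.15, edgeR adjusted p = 0.46). PLAU, the urokinase that generates plasmin, had a mean of 52.7 ± 17.8 CPM in HHD+S and one of 82.4 ± 32.5 in HHD (SD, n = 6 each). Its fold change was -0.64 on the log2 scale (SE 0.30, edgeR adjusted p = 0.58).

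Of 24 listed substrates 21 were tested, and 0 passed after adjustment with edgeR. At an edgeR unadjusted p below 0.05, 2 were higher (NCAN and CDH2) and 1 lower (LPL) for WD+S against HHD+S. For HHD+S against HHD 1 was lower (FN1). For WD+S against HHD 3 were higher (CDH2, NCAN and HBEGF) and 1 lower (FN1). For WD+S against HHD+S, NCAN had the smallest p of the 21 and the largest fold change of those below 0.05. Of the 21, 14 are from the first table, where 5.9% of all genes were higher and 2.79% lower for WD+S against HHD+S, 3.73% lower for HHD+S against HHD, and 7.56% higher and 3.87% lower for WD+S against HHD. The others are from the second table, where the shares were 5.73%, 2.45%, 3.61%, 7.42% and 3.72% in the same order. CDH2, a cadherin that ADAM10 sheds, averaged 17.3 ± 4.19 CPM in WD+S (n = 8) and 10.3 ± 2.83 in HHD (SD, n = 6). That is 0.75 higher in WD+S on the log2 scale (SE 0.18, edgeR adjusted p = 0.22), and the HHD+S mean lay between them. The other listed cadherins, CDH1 and CDH5, were not below an edgeR unadjusted p of 0.05 in any comparison. Their fold changes for WD+S against HHD had opposite signs. FN1 (fibronectin) averaged 1963 ± 563 CPM in HHD+S and 4690 ± 3613 in HHD (SD, n = 6 each). The fitted fold change was -1.26 on the log2 scale (SE 0.40, edgeR adjusted p = 0.37), with a spread within HHD nearly as large as its mean.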

How the data were processed

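RNA of epicardial fat was sequenced in 20 libraries; groups were read from the diet labels, and replicate numbers follow accession order. Each library was taken as its own pig, since titles carry different numbers and no label says more, and the p-values measure the spread between these libraries. Whether HHD replicates 3 and 5, with reads of both XIST and Y-linked genes, each hold RNA of a single pig was not tested. The kit named in the labels' protocols (TruSeq RNA v2) does not mark strand, so reads of overlapping antisense genes cannot be told apart. Named in the submitters' processing notes are bcl2fastq 2.17.1.14 and the build Sscrofa10.2; which aligner and counter were used is not given in the sources used here. Deposited by the authors were whole-number counts (unique exon reads per gene in the first table, unique gene reads in the second) and, per the file headers, RPKM values in the second. The origin of the second gene set is not stated, and the tables were never merged.

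The test on counts was edgeR 4.0.16 under R 4.3.3 (TMM, quasi-likelihood F test, minimum count 10, minimum total 15, 1 fit over all groups), with Benjamini-Hochberg adjustment over all genes of a table and a threshold of 0.05. The code was tested on simulated data. Standard errors were approximated by dividing a fold change by the root of its F value. Within-pool differences are of mean log2(CPM + 0.5). DESeq2 1.42.0, other scalings, no filter, a pool or Y-linked term and left-out libraries (those of letter B chosen after the data were seen) were the alternatives. The authors' RPKM entered no test. At depths of 2749337 to 6543337 counts per library, 1 read is worth less than 1 CPM.

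The members, gene lists and marker lists were chosen with earlier results of these data known. Values by group are given for the 6 tested entries with the smallest p in each comparison, the 8 with the highest median RPKM and 12 well-known members (MMP2, MMP9, MMP14, MMP19, TIMP1, TIMP2, TIMP3, TIMP4, ADAM10, ADAM17, ADAMTS1, ADAMTS5); other members were named after their values were seen.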

Additional observations from a re-analysis of the deposited data

Results flagged for a closer look

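In 27 members with group values, 81 groups were searched for a library far from the rest of its group by Dixon's test at the 95% level, which flags about 1 in 20 groups by chance, and 4 were found. In HHD replicate 2, ADAM28 stood at 12.6 CPM, against 2.77 to 5.07 CPM in the other HHD libraries, and MMP9 stood at 9.78 CPM, against 0.552 to 2.82 CPM. In WD+S replicate 1, ADAMTS15 stood at 167 CPM, against 50.8 to 102 CPM in the other WD+S libraries. In WD+S replicate 3, ADAMTSL4 stood at 247 CPM, against 75.9 to 157 CPM. HHD replicate 2 and WD+S replicate 1 had the highest neutrophil marker sums of the series, 228 and 76.8 CPM, and their part in these values was not tested.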

How the results depend on the processing

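Over 45 fold changes of single members, 1346 of 1379 refits kept the sign, 33 in 12 results turned it, and 0 passed the threshold. Outside single left-out libraries, the turned values were MMP2 in WD+S against HHD+S (0.01 on library totals, 0.08 with the pool and 0.04 with the Y-linked level as a term), and, without HHD+S replicates 5 and 6, TIMP1 in HHD+S against HHD (-0.07) and TIMP2 in WD+S against HHD+S (-0.05). Without HHD replicates 3 and 5 they were ADAM10 in HHD+S against HHD (-0.01) and, in WD+S against HHD, TIMP2 (0.02), TIMP3 (0.10) and ADAM10 (-0.08). Without the letter B libraries, a choice made after the data were seen, TIMP1, which is highest in those libraries, turned in WD+S against HHD+S (0.33), HHD+S against HHD (-0.18) and WD+S against HHD (0.15). Leaving out 1 library gave ranges across 0 for MMP2 (-0.14 to 0.07) and MMP14_1 (-0.12 to 0.05) in WD+S against HHD+S, for TIMP1 in HHD+S against HHD (-0.07 to 0.38), and in WD+S against HHD for TIMP1 (-0.22 to 0.15), TIMP3 (-0.33 to 0.00), ADAM10 (-0.03 to 0.15), ADAM17_1 (-0.01 to 0.04) and ADAMTS5 (-0.14 to 0.07). The cause was not tested. Genes called, 0 in each comparison, became 13, 14 and 80 with DESeq2 (WD+S against HHD+S, HHD+S against HHD, WD+S against HHD), 1 in the first and 1 in the last with only those groups fitted, and 1 in the last without HHD+S replicates 5 and 6; leaving out 1 library gave 0 to 1 in the first and 0 to 22 in the last (22 without WD+S replicate 1, 14 without HHD replicate 6). Members at an unadjusted p below 0.05 in WD+S against HHD+S, 5 in the first table, were 2 without HHD+S replicates 5 and 6 and 2 to 6 without 1 library (2 without HHD+S replicate 3 or 5), and the 1 of the second table became 2 with no filter, 2 with the pool as a term and 0 without HHD+S replicates 5 and 6. In HHD+S against HHD the 9 of the first table became 5 without the letter B libraries, 4 without HHD replicates 3 and 5 and 4 to 13 without 1 library, and the 5 of the second became 1 without the letter B libraries, 3 without HHD replicates 3 and 5, 1 without HHD+S replicates 5 and 6 and 1 to 6 without 1 library. In WD+S against HHD the 7 of the first table ranged from 5 to 13 and the 4 of the second from 2 to 4 without 1 library, and the second count was 2 on library totals. These choices of an unadjusted count were made after the data were seen. No paired analysis was possible because replicate numbers follow accession order and the labels give no pairing. At these depths entries below about 1 CPM rest on few reads.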

Other observations

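Chosen after its values were seen, ADAM12 differed in HHD replicates 1 and 2 between the RPKM of the second table and the CPM of the first. Its RPKM in the second table was 37.5 and 50.2 in these libraries and between 10.23 and 23.7 in the other 18. In the first table, whose ADAM12 row held 430 reads against 2823 in the second, the same libraries had 8.56 and 6.69 CPM, and the highest was WD+S replicate 1 with 9.34 CPM. The same HHD libraries were the highest of the series for ADAMTS3, at 17.9 and 15.3 CPM, which is in the second table only. RPKM do not come from the unique reads alone, so measure and table change at once here, and their parts in the difference were not tested. The reads that made up the difference could not be traced to exons or introns from these tables.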
